A study of Homo sapiens with 10 samples.

Results

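The genes described here encode the MHC class I antigen presentation pathway: the heavy chains HLA-B, HLA-C, HLA-E and HLA-F, the light chain B2M, the peptide transporter subunits TAP1 and TAP2, the loading chaperone TAPBP (tapasin) and the immunoproteasome subunit PSMB9. They were chosen by symbol, and all 9 were found among the 11880 genes of the table. The samples were 10 subclones of the human glioma line U87MG, each raised from a single-cell colony of a sparse plating and kept as an adherent culture in serum-containing medium. The labels give all 10 the same culture conditions and name no treatment or genetic change, and they carry the numbers 1, 2, 3, 5, 6, 8, 9, 10, 11 and 12. Each subclone was measured on 1 Affymetrix array, so a difference between subclones could not be set against the spread between cultures or arrays of the same subclone. Values are log2 expression values from RMA, a method that corrects background, equalises the arrays' signal distributions and summarises probes, so that 1 log2 unit is a 2-fold difference.

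MHC class I molecules carry short peptides from inside the cell to its surface, where CD8 T cells and natural killer cells inspect them. The immunoproteasome cuts proteins into peptides, the TAP transporter moves them into the endoplasmic reticulum, and tapasin holds empty heavy chain and light chain pairs next to the transporter until a peptide binds. Interferon raises most of these genes through factors such as IRF1, and tumours, gliomas among them, are known to vary in how much of the pathway they express.

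The promoters of 5 of these genes are shown because the results turn on which genes varied together: HLA-B with HLA-C, B2M with TAP1, and TAP1 with PSMB9, its neighbour on the opposite strand. Sequences are from RefSeq on GRCh38.p14 and run 5′ to 3′ on the gene's strand, from 250 bases before the start site to 50 after it. Capitals mark matches, on either strand, to any of 5 motifs: GAAANNGAA (the core bound by IRF factors), TTCNNNGAA (STAT factors), GGGNNTTCC (NF-kappa-B), CCAAT (NF-Y) and TGACG (CREB and ATF factors).
HLA-B, chr6:31357130-31357429, minus strand: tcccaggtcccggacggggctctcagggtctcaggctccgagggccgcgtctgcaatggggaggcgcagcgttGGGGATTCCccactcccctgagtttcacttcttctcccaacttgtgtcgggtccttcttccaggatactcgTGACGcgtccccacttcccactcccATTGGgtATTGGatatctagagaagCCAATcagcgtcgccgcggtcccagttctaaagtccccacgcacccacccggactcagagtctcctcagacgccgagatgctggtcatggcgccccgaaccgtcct
HLA-C, chr6:31272043-31272342, minus strand: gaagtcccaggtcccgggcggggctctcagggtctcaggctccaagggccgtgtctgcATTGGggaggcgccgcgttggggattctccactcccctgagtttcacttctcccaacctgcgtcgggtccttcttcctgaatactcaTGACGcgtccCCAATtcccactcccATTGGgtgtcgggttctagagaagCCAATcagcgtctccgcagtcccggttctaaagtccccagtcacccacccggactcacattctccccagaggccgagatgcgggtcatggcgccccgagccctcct
B2M, chr15:44711267-44711566, plus strand: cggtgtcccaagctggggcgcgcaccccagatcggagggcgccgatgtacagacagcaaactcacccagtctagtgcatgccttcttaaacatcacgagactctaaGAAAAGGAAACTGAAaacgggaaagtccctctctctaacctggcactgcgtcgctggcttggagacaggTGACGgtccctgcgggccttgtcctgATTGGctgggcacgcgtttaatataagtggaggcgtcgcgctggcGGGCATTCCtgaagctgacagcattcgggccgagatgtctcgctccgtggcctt
TAP1, chr6:32853655-32853954, minus strand: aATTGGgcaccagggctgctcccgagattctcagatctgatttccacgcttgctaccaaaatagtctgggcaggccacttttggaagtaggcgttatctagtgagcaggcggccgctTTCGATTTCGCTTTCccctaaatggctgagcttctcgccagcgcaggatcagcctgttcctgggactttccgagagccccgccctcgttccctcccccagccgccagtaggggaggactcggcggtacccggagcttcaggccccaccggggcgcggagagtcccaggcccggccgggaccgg
PSMB9, chr6:32853942-32854241, plus strand: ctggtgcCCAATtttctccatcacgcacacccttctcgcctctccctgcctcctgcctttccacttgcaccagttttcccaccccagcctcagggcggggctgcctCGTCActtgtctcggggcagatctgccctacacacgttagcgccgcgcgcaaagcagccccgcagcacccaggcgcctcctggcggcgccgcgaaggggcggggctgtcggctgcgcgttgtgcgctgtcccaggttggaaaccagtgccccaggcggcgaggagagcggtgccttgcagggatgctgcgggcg

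A promoter window was matched for 8 of the 9 genes, HLA-E being the other, and TAP1 had a second window, which gave 9 windows. GAAANNGAA occurred in 5 of the 9 windows, those of B2M, HLA-F, TAP1, TAP2 and TAPBP, and in 8.11% of all 35116 promoter windows of the same length. In the B2M and TAP1 windows printed above, a pair of GAAANNGAA matches overlapped to form 1 longer run of capitals. CCAAT was found in 6 windows against 34.6% of all promoters, TGACG in 5 against 24.6%, GGGNNTTCC in 3 against 6.58%, and TTCNNNGAA in the second TAP1 window alone against 7.66%. The aligned HLA-B and HLA-C windows were identical at 269 of 296 positions (90.9%), and HLA-F matched HLA-B at 82.4% and HLA-C at 82.3%. The start sites of TAP1 and PSMB9 lay 488 bases apart on opposite strands, and their windows overlapped by 13 bases.

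Of the 9 genes, 8 passed the filter on low values, which kept the 7095 genes whose highest value reached the median of the whole table, 5.00. All 8 exceeded that median in every subclone, whereas TAP2 lay below it on every array. Most of these genes spanned less than 2-fold between subclones. The highest and lowest subclone differed by at least 2-fold in 3 of the 8 genes, HLA-E, TAP1 and PSMB9, against 63.3% of all tested genes, and by at least 4-fold in 0 of the 8, against 12.9% of tested genes. Tested genes of similar mean level gave a different yardstick. The SD exceeded that of 79.3% of such genes for HLA-B, 73.9% for HLA-C and 62.1% for HLA-E. It exceeded that of 61.0% for B2M, 83.8% for TAP1 and 88.1% for PSMB9, but of 4.81% for HLA-F and 4.24% for TAPBP. With 1 array per subclone these values are a description with no test. HLA-E stood just past 2-fold, at 2.07-fold, and HLA-B just short of it, at 1.83-fold, and leaving out subclone 5 or 9 reduced the count to 2.

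**Figure D1:**
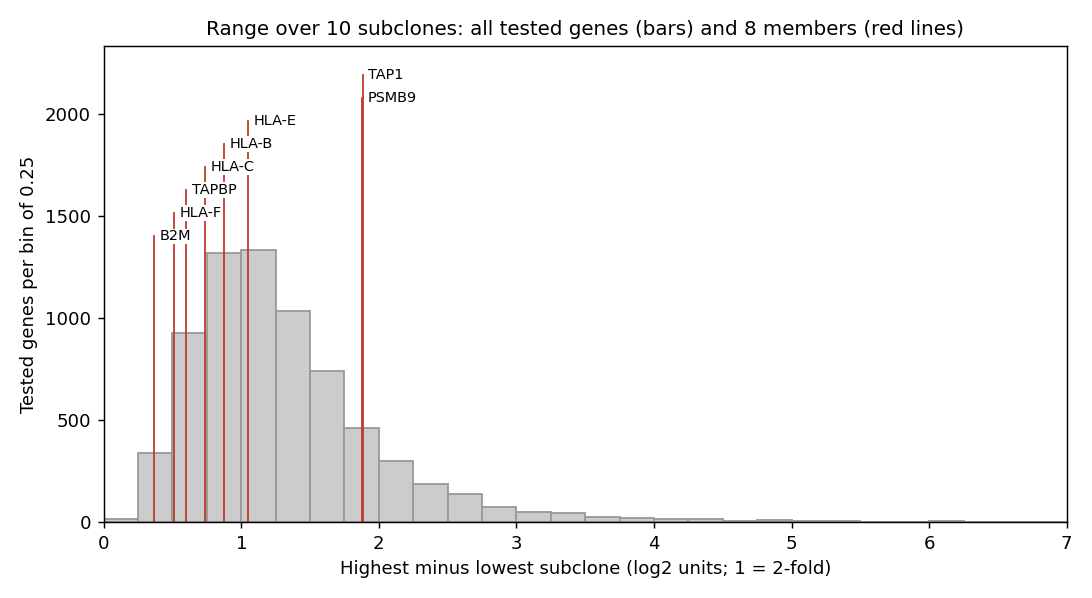
Distribution of the difference between the highest and the lowest of 10 subclones, in log2 units on the x axis, over 7095 tested genes (grey bars, number of genes per bin), with the 8 tested class I pathway genes as red lines whose heights only separate the labels. TAP1 and PSMB9 lie at 1.88, and the other 6 genes lie between 0.37 and 1.05.

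The median over tested genes differed between the arrays and moved with some of the results. It was highest on the array of subclone 9, at 6.97, and lowest on that of subclone 10, at 6.31, while the other 8 lay between 6.55 and 6.92. Over all genes of the table the medians of the arrays lay closer together, from 4.87 in subclone 10 to 5.11 in subclone 9. The main relations below are also given after the array's median over tested genes, called the array median below, was subtracted. That subtraction moves the arrays by more than their medians over all genes differ. Among markers of other cell types, all 10 leukocyte markers and all 5 endothelial markers stayed below the table's median throughout, with list means of 3.52 to 3.98 and 3.51 to 3.94 log2 units. Of 4 epithelial markers in the table, KRT8 passed the filter (4.49 to 6.05). Of 8 glial and glioma markers, CD44, NES and CHI3L1 passed the filter, whereas GFAP, S100B, OLIG2, SOX2 and AQP4 lay below the table's median on every array. In these bulk RNA samples, fewer cells expressing a gene and less RNA per cell cannot be told apart.

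The classical heavy chains HLA-B and HLA-C, which present peptides to CD8 T cells, rose and fell together across the subclones. HLA-B measured 11.58, 11.95, 11.76, 11.97, 11.75, 11.91, 11.17, 11.42, 11.42 and 11.10 log2 units in subclones 1, 2, 3, 5, 6, 8, 9, 10, 11 and 12, with a mean of 11.60 ± 0.32 (SD, n = 10). HLA-C measured 11.99, 12.20, 12.12, 12.26, 12.05, 12.22, 11.63, 11.97, 11.82 and 11.53 in the same order, with a mean of 11.98 ± 0.25 (SD, n = 10). Subclones 5, 2 and 8 held the 3 highest values of both genes, and subclones 12 and 9 the 2 lowest. Their levels correlated with Pearson r = 0.98 (permutation p = 1e-05, the smallest that 100000 permutations can give) and Spearman rho = 0.99 (permutation p = 2e-05). Without subclones 9 and 12, the farthest from the HLA-B median, r was 0.95, and after subtraction of array medians it was 0.96. HLA-B and HLA-C transcripts are near-identical over long stretches, and the table does not show whether their probes can tell them apart, so the 2 genes may share signal, and the part of that in this relation was not tested.

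HLA-E, which presents leader peptides of other class I chains to natural killer cell receptors, ranged from 9.27 in subclone 9, over a median of 10.00, to 10.32 in subclone 5. HLA-F, a less polymorphic chain that can reach the surface without peptide, ranged from 8.24 in subclone 9, over a median of 8.65, to 8.74 in subclone 1. Both were lowest in subclone 9, and subclone 5 was the highest or second highest for each. HLA-E correlated with HLA-B (r = 0.77, permutation p = 0.00784; rho = 0.75, permutation p = 0.0174), with r = 0.74 without subclones 9 and 12. It also correlated with HLA-C (r = 0.73, permutation p = 0.0159; rho = 0.73, permutation p = 0.0203), with r = 0.69 without the same 2 subclones. HLA-E and HLA-F correlated with r = 0.81 (permutation p = 0.00454) and rho = 0.77 (permutation p = 0.0125), and r was 0.84 without subclones 9 and 11. Leaving out subclone 9 alone raised the permutation p of HLA-E with HLA-C to 0.0676 and that of HLA-E with HLA-F to 0.0715. After subtraction of array medians r of HLA-E with HLA-B, HLA-C and HLA-F was 0.80, 0.78 and 0.80. The rank correlations of the same pairs were then lower, at rho = 0.48, 0.54 and 0.61.

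HLA-F correlated with HLA-B (r = 0.77, permutation p = 0.00783) and with HLA-C (r = 0.77, permutation p = 0.0113) over all subclones, and these relations rested on the 2 lowest: without subclones 9 and 12 they were 0.32 and 0.15. Its rank correlations with them, 0.54 and 0.53, had permutation p-values of 0.116 and 0.125. Over the 6 pairs of heavy chains the mean r was 0.81, ranging from 0.73 to 0.98, and it was 0.83 after subtraction of array medians. It lay between 0.72 and 0.84 when any 1 subclone was left out. After the subtraction HLA-F also had r = 0.80 with SOX2, which lay below the table's median on every array.

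**Figure D2:**
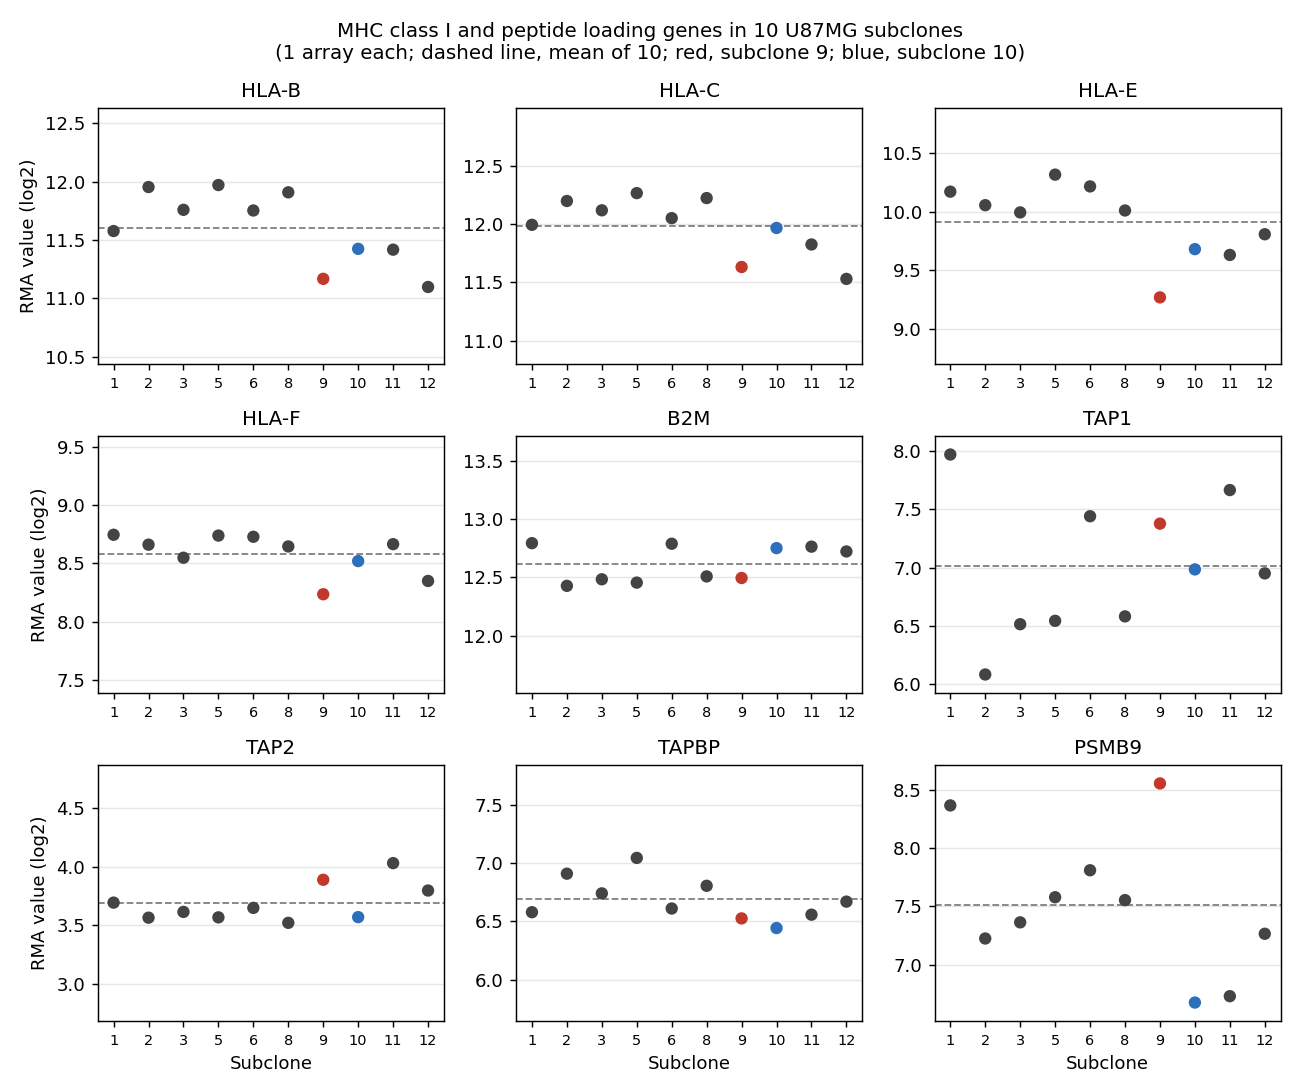
RMA log2 value of each of the 9 genes (y axes, all spanning the same number of log2 units) by subclone (x axis), 1 array per point, with subclone 9 in red and subclone 10 in blue. HLA-B and HLA-C are lowest in subclones 12 and 9, HLA-E and HLA-F in subclone 9, and PSMB9 is highest in subclone 9, while TAP1 and PSMB9 have the widest spread.

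TAPBP, the tapasin chaperone that bridges empty class I molecules to the transporter, varied within a narrow span. It correlated with the classical heavy chains in tests unadjusted for the number of pairs. Its values ran from 6.44 in subclone 10, over a median of 6.64, to 7.04 in subclone 5. Subclones 5 and 2 were its highest, as they were for HLA-B. TAPBP correlated with HLA-B (r = 0.73, permutation p = 0.0164; rho = 0.78, permutation p = 0.0108) and with HLA-C (r = 0.64, permutation p = 0.0488; rho = 0.77, permutation p = 0.0127). Without subclones 9 and 12 these r were 0.91 and 0.87, and after subtraction of array medians they were 0.79 and 0.81. When 1 subclone was left out, the permutation p of TAPBP with HLA-B stayed below 0.05 in 10 of 10 sets, and that with HLA-C in 2, those without subclones 10 and 12, and reached 0.133. With HLA-E, r was 0.63 (permutation p = 0.0515) and rho 0.67 (permutation p = 0.0402), and with HLA-F r was 0.39 (permutation p = 0.26). Both r were 0.72 after the subtraction. In the limma regressions given below, TAPBP had an adjusted p of 0.404 on HLA-B and 0.539 on HLA-C. The reverse fits had 0.0663 and 0.135. TAPBP also moved with the array median (r = 0.60), and the part of that in its relations was not tested beyond the subtraction.

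B2M, the light chain shared by all class I molecules, had no correlation with a heavy chain that passed 0.05 on the values as deposited. It measured 12.79, 12.43, 12.48, 12.46, 12.79, 12.51, 12.49, 12.75, 12.76 and 12.72 log2 units in subclones 1, 2, 3, 5, 6, 8, 9, 10, 11 and 12, with a mean of 12.62 ± 0.16 (SD, n = 10). These values fell on 2 sides of a gap of 0.21: subclones 2, 3, 5, 8 and 9 lay at 12.43 to 12.51, and the other 5 at 12.72 to 12.79. After subtraction of array medians the same 5 subclones were the lowest, but subclones 8 and 12 lay at 5.76 and 5.92. The widest gap was then between subclones 11 and 10, at 6.22 and 6.44. With HLA-B the correlation was -0.47 (permutation p = 0.165) and 0.21 after subtraction of array medians, and with HLA-C it was -0.42 (permutation p = 0.226) and 0.41. With HLA-E it was -0.05 (permutation p = 0.902) and 0.41, and with HLA-F it was 0.14 (permutation p = 0.685) and 0.76. The sign thus changed with the scaling for 3 heavy chains and stayed positive for HLA-F. B2M was lower where the array median was higher (r = -0.67).

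TAP1, the transporter subunit that with TAP2 forms the peptide pump, had the widest range of the 9 genes. It measured 7.97, 6.08, 6.52, 6.54, 7.44, 6.58, 7.38, 6.98, 7.66 and 6.95 log2 units in subclones 1, 2, 3, 5, 6, 8, 9, 10, 11 and 12, with a mean of 7.01 ± 0.59 (SD, n = 10), a 3.69-fold span. Subclones 1, 11 and 6 were highest and subclone 2 lowest, with 3, 5 and 8 next above it. In the 5 subclones with high B2M, TAP1 lay between 6.95 and 7.97, and in the 5 with low B2M between 6.08 and 7.38, so the groups overlapped through subclone 9. Over all 10 subclones r was 0.78 (permutation p = 0.0139) and rho 0.90 (permutation p = 0.00074). B2M as deposited fell on 2 sides of a gap, with 5 subclones on each, and the relation was not tested within them. The correlation was 0.78 after subtraction of array medians, 0.66 without subclones 1 and 2, and between 0.72 and 0.90 when any 1 subclone was left out.

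TAP2, the other transporter subunit, was read near the floor of the arrays, from 3.52 in subclone 8, over a median of 3.63, to 4.03 in subclone 11, where differences are compressed. TAP2 correlated with TAP1 (r = 0.63, permutation p = 0.0493; rho = 0.70, permutation p = 0.03), with r = 0.78 without subclones 1 and 2 and 0.79 after subtraction of array medians. When 1 subclone was left out, that p was below 0.05 in 3 of 10 sets, those without subclones 1, 6 and 12, and reached 0.125. After subtraction of array medians TAP2 also had r = 0.88 with SOX2, which lay below the table's median on every array.

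Of the pairs, 3 were negative with both permutation p-values below 0.05, and all 3 depended on the scaling. TAP1 correlated with TAPBP at r = -0.72 (permutation p = 0.0175; rho = -0.73, permutation p = 0.0202), with r = -0.70 without subclones 1 and 2. TAP2 correlated with HLA-B at r = -0.72 (permutation p = 0.0186; rho = -0.83, permutation p = 0.00529) and with HLA-C at r = -0.76 (permutation p = 0.0114; rho = -0.84, permutation p = 0.00421), and without subclones 9 and 12 these r were -0.64 and -0.80. Leaving out subclone 2 raised the p of TAP1 with TAPBP to 0.0505, and leaving out subclone 9 raised that of TAP2 with HLA-B to 0.0533. After subtraction of array medians the 3 correlations became -0.17, -0.12 and 0.081. Of the 36 pairs among the 9 genes, 11 had both permutation p-values below 0.05, unadjusted for the number of pairs: the 3 negative pairs just given and 8 positive ones. The 8 positive pairs stayed positive after the subtraction. The mean r over all 36 pairs was 0.07, with 18 positive and 18 negative, close to 0.073 over all pairs of tested genes; after the subtraction it was 0.32, against 0.047.

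**Figure D3:**
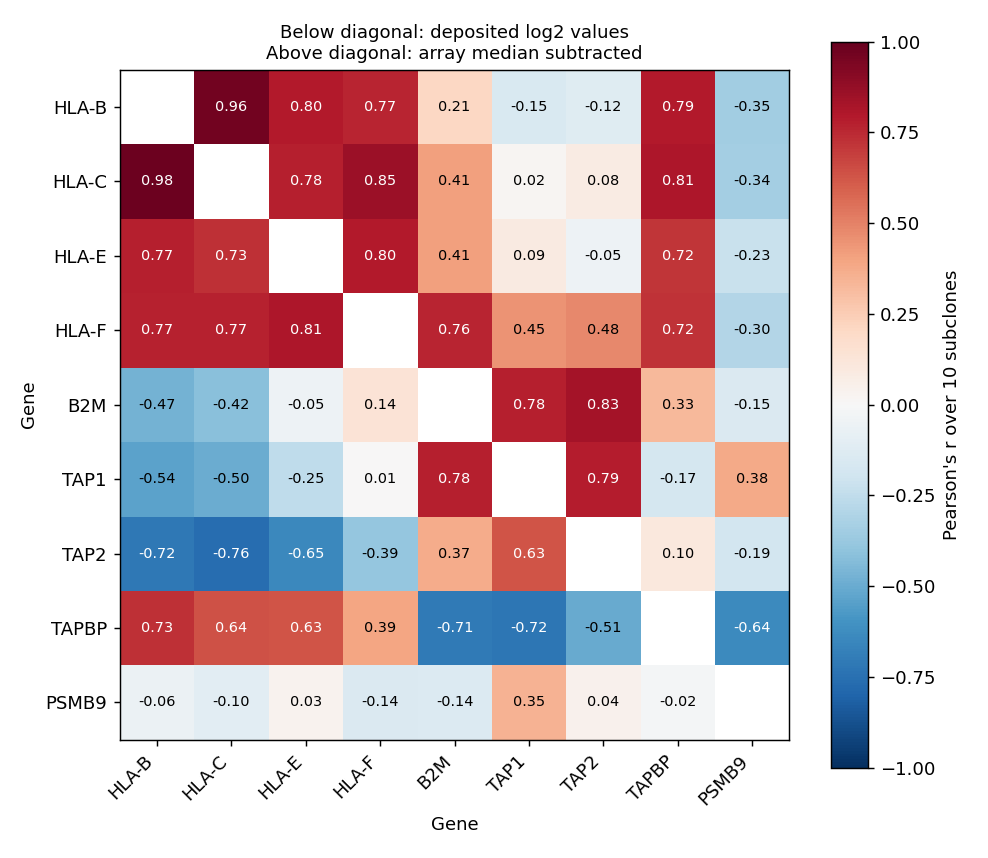
Pearson correlation over 10 subclones for every pair of the 9 genes, coloured and printed in each cell, with RMA values as deposited and after subtraction of each array's median over tested genes. The heavy chains and TAPBP have positive r with one another in both. B2M, TAP1 and TAP2 do too, but B2M with TAP2 is 0.37 as deposited (permutation p = 0.288). After the subtraction B2M also had r = 0.98 with OLIG2, which lay below the table's median on every array. The negative values of TAP1 with TAPBP and of TAP2 with HLA-B and HLA-C go from -0.72, -0.72 and -0.76 to -0.17, -0.12 and 0.081.

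PSMB9, the catalytic subunit that replaces PSMB6 in the immunoproteasome, varied as widely as TAP1, with the subclones in a partly different order. It measured 8.37, 7.23, 7.36, 7.58, 7.81, 7.55, 8.55, 6.68, 6.73 and 7.27 log2 units in subclones 1, 2, 3, 5, 6, 8, 9, 10, 11 and 12, with a mean of 7.51 ± 0.61 (SD, n = 10), a 3.67-fold span. Subclones 9 and 1 were highest and subclones 10 and 11 lowest. Subclone 1 was also the highest for TAP1, and subclone 6 was at rank 3 for both genes. Subclone 11 held the second highest TAP1 but the second lowest PSMB9, from start sites only 488 bases apart. TAP1 and PSMB9 correlated with r = 0.35 (permutation p = 0.323) and rho = 0.28 (permutation p = 0.428), and r was 0.03 without subclones 1 and 2. Leaving out any 1 subclone gave r between 0.10 and 0.63, so these 10 arrays set no close bound on the relation.

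PSMB9 had r between -0.14 and 0.35 with the other 8 genes on the values as deposited. After subtraction of array medians the range was -0.64, with TAPBP, to 0.38, with TAP1. Subclone 9 decided several of these values. With HLA-E, r was 0.03 over all subclones and 0.81 without subclone 9, which held the highest PSMB9 and the lowest HLA-E. With HLA-F it was -0.14 over all subclones and 0.49 without subclone 9. The array median moved with PSMB9 (r = 0.60), and its range after the subtraction was 1.46 log2 units.

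The gene most like each of the 9, by the highest r among tested genes on the values as deposited, was another antigen presentation gene for the 4 heavy chains, which did not hold for HLA-E after subtraction of array medians, and CD74 then fell to rank 97 for HLA-F. For PSMB9 one ranked second: PSMB8, which encodes another immunoproteasome subunit next to TAP1 in the genome, had r = 0.94 with PSMB9, and 0.95 after subtraction of array medians. It ranged from 6.28 in subclone 10 to 7.88 in subclone 9, the same extremes as PSMB9, and had r = 0.13 with TAP1. MMACHC, a cobalamin-processing gene, ranked first for PSMB9 (r = 0.94, and 0.90 after the subtraction, where PSMB8 was first), and SEC22B, a vesicle fusion gene, followed (r = 0.93, and 0.50 after the subtraction). Of the 12 proteasome and peptide supply genes, 10 had a positive r with PSMB9, with a median of 0.52 against 0.22 over all tested genes.

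On the values as deposited, HLA-E and HLA-F were closest to genes of MHC class II, the pathway that normally presents peptides from outside the cell to CD4 T cells. HLA-DMA, which helps load class II molecules, had r = 0.99 with HLA-E, and 0.96 without subclones 9 and 11. CD74, the invariant chain, HLA-DPA1 and HLA-DQB1 had r = 0.96, 0.96 and 0.95 with HLA-F, and 0.79, 0.76 and 0.79 without subclones 9 and 12. After subtraction of array medians HLA-DMA had r = 0.94 with HLA-E and ranked second, behind CDK5RAP2. The 3 genes had r = 0.86, 0.88 and 0.78 with HLA-F and ranked 97, 66 and 387, so their place as the closest genes held only without the subtraction. CD74 ranged from 6.74 in subclone 9, over a median of 8.71, to 9.71 in subclone 1. The subclones with low HLA-F, 9 and 12, were those with low CD74, separated from the other 8 by a gap of 1.30 log2 units. On the deposited values HLA-E was next closest to CDK5RAP2, a centrosome gene, and SRPX2, a secreted protein gene (r = 0.95 and 0.93, and 0.95 and 0.94 after the subtraction).

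All 6 tested class II genes differed by at least 4-fold between subclones, against 12.9% of tested genes, and all 6 were lowest in subclone 9. HLA-DQA1 (3.63 to 7.83), HLA-DQB1 (5.56 to 9.52) and HLA-DPA1 (7.16 to 10.58) had the largest SD. The r of all 6 was positive with each of the 4 heavy chains. The median r was 0.73 with HLA-B, 0.76 with HLA-C, 0.77 with HLA-E and 0.90 with HLA-F, against -0.04 to 0.03 over all tested genes, and it was 0.74 to 0.89 after the subtraction. With B2M, TAP1 and PSMB9 the medians were 0.16, 0.06 and 0.01.

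**Figure D4:**
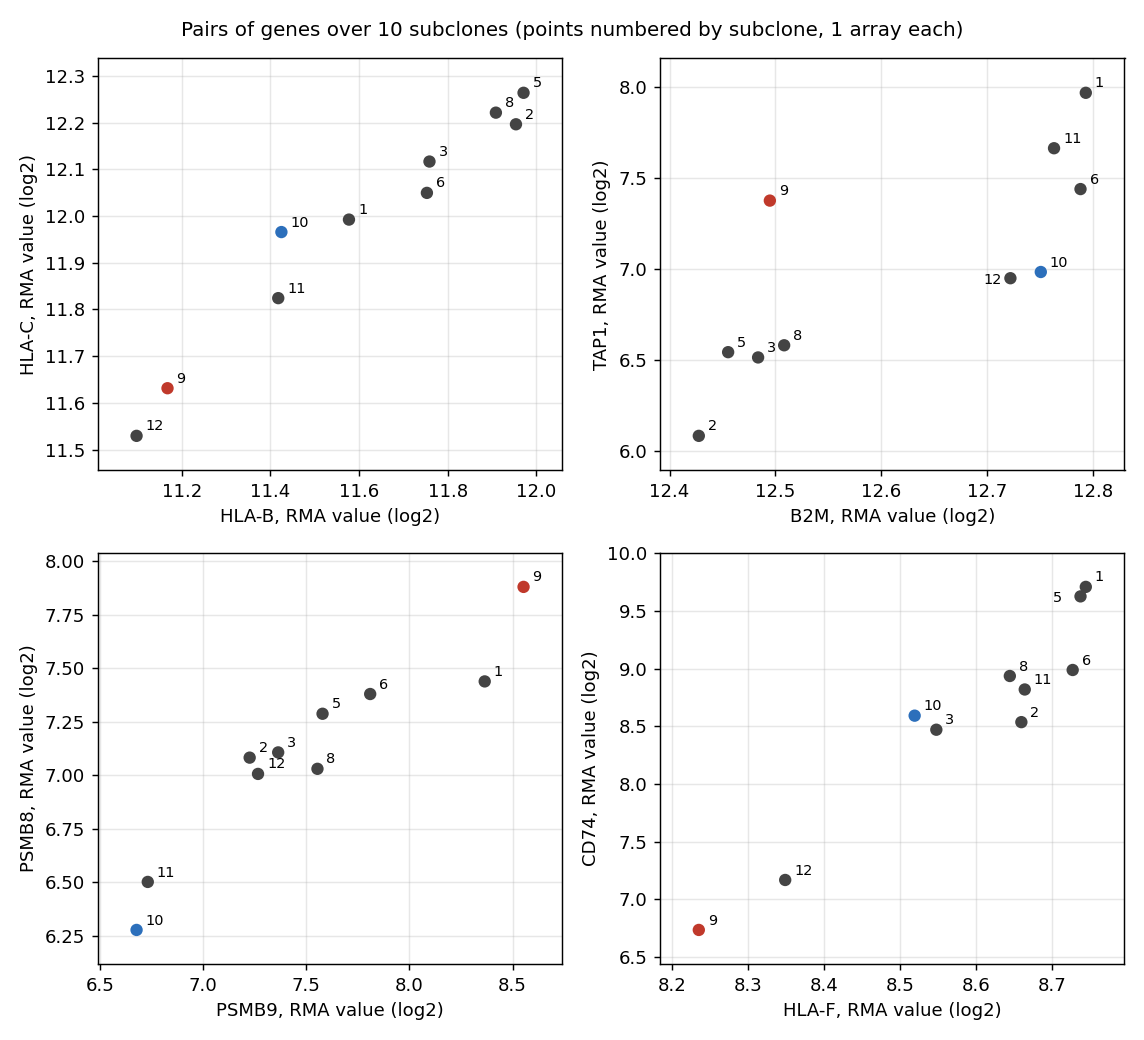
RMA log2 values of 4 gene pairs on both axes, 1 point per subclone, numbered, with subclone 9 in red and subclone 10 in blue. HLA-C follows HLA-B (r = 0.98) and PSMB8 follows PSMB9 (r = 0.94) along the whole range. B2M as deposited lies on 2 sides of a gap, with 5 subclones on each, and HLA-F and CD74 are both low in subclones 9 and 12.

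On the deposited values HLA-B and HLA-C were each the gene most like the other. NRN1, a neurite growth gene, and EFEMP2, an extracellular matrix gene, followed for HLA-B (both r = 0.95, and 0.89 and 0.90 after the subtraction), and SMPDL3A, a phosphodiesterase gene, for HLA-C (r = 0.92, and 0.84).

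The genes closest to B2M, TAP1, TAP2 and TAPBP were none of the antigen presentation genes listed here. For B2M they were SUMO2, a protein modifier (r = 0.97), UQCR, of the respiratory chain (r = 0.95), and RPL18, a ribosomal protein (r = 0.94), and for TAP1 they included ATP5L, of the ATP synthase, and AMPD3, an AMP deaminase (both r = 0.94). For TAP2 they were CDC34, a ubiquitin-conjugating enzyme (r = 0.94), RELB, an NF-kappa-B subunit, and SMARCAL1, a DNA repair helicase (both r = 0.92). With array medians subtracted, r was 0.98, 0.96 and 0.98 for the 3 genes of B2M and 0.91 and 0.96 for those of TAP1. For those of TAP2 it was 0.87, 0.95 and 0.89. The subtraction raised the SD of B2M from 0.16 to 0.33 and that of HLA-F from 0.17 to 0.28. SOX2, below the table's median on every array, then had r = 0.97 with B2M, 0.88 with TAP2 and 0.80 with HLA-F. The values after the subtraction therefore do not show that the relations of B2M, TAP2 and HLA-F hold apart from the array medians. The genes closest to TAPBP were C5orf54, ACOX3, a peroxisomal oxidase, and ZMYM3, a zinc finger gene (r = 0.97, 0.96 and 0.95), and subtraction of array medians lowered these to 0.75, 0.43 and 0.56.

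Regression of every tested gene on the level of 1 member with limma, with Benjamini-Hochberg adjustment over all tested genes, asked how these relations stand among all genes. Pooled over the 9 regressions, 3 of 64 tests of members passed an adjusted p of 0.05, against 1.61% of all tests, and 20 of 64 passed an unadjusted p of 0.05, against 16.8%. The 3 were HLA-C on HLA-B (adjusted p = 0.00871), HLA-B on HLA-C (adjusted p = 0.0128) and TAP1 on B2M (adjusted p = 0.0444). Each pair of tested members was fitted in both directions, so the 64 tests are not separate. The first 2 of these 3 are the same pair, whose genes may share signal. The HLA-B regression called 0.606% of genes, that on HLA-C 0.0846% and that on B2M 8.01%. After subtraction of array medians the adjusted p-values of these 3 were 0.0554, 0.0865 and 0.0183 in limma. The B2M regression then called 1512 of 7094 genes. The reverse fit, B2M on TAP1, had a limma adjusted p of 0.0942 on the values as deposited and 0.0452 after the subtraction. When 1 subclone was left out, TAP1 on B2M passed in 3 of 10 sets, those without 9, 10 and 12, with a limma adjusted p of up to 0.142. HLA-C on HLA-B passed in 9 sets (adjusted p = 0.0568 without subclone 5), and HLA-B on HLA-C in 7, not without 2, 5 or 8 (up to 0.0908).

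In the same limma regressions, HLA-DMA was the 1 gene called on HLA-E (0.0141% of tested genes), with a slope of 2.55 ± 0.24 log2 units per unit of HLA-E (SE, adjusted p = 0.000945). The HLA-F regression called 4 genes (0.0564%), of which HLA-DPA1, CD74 and HLA-DQB1, with slopes of 6.04, 5.28 and 7.36 (limma adjusted p = 0.00263 for each), are class II genes, and SATB1, a chromatin organiser, was the other. Thus 1 of the 6 class II genes rose with HLA-E and 3 of 6 with HLA-F, while 0 of 6 passed on HLA-B or HLA-C. At an unadjusted p below 0.05, limma had 4 of 6 on HLA-B, 4 on HLA-C, 6 on HLA-E and 6 on HLA-F, against 15.9%, 14%, 11.6% and 9.05% of tested genes. Without subclone 9 none of the 4 class II calls remained, at limma adjusted p of 0.0880 for HLA-DMA and 0.132 for each of the other 3. After subtraction of array medians HLA-DMA kept an adjusted p of 0.0306, and the other 3 had 0.0583, 0.0583 and 0.0628.

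The regression on TAP1 called 1 gene (0.0141%), PDIA5, an endoplasmic reticulum disulfide isomerase, which fell by 1.04 log2 units per unit of TAP1 (limma adjusted p = 0.0135). That call was lost without subclone 2, 3, 5, 6 or 8, with an adjusted p of up to 0.116. With array medians subtracted, PDIA5 kept an adjusted p of 0.0338, but the TAP1 regression then called 646 genes, and it called 190 without subclone 9 and 352 without subclone 10. The regression on TAPBP called 402 genes (5.67%), 0 of them members, against 14 after the subtraction, 0 without subclone 2 and 999 without subclone 9. Those on TAP2 and PSMB9 called 0 genes (0%), with 908 and 868 genes at an unadjusted p below 0.05 in limma. PSMB8 on PSMB9 had an adjusted p of 0.268.

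IRF1, which carries interferon signals to these promoters, ranged from 6.10 in subclone 10, over a median of 6.45, to 7.34 in subclone 9. CIITA, the class II transactivator, lay between 3.70 and 4.24, below the table's median on every array. NLRC5, the class I transactivator, was not found in the table. In limma regressions on IRF1 and CD74, 0 of 16 tests of members passed an adjusted p of 0.05, against 0.0352% of all tests, and 7 of 16 passed an unadjusted p of 0.05, against 9.28%. At that unadjusted level HLA-B, HLA-C and HLA-E had negative slopes on IRF1 (-0.49 ± 0.20, -0.43 ± 0.15 and -0.55 ± 0.21, SE), and all 4 heavy chains positive slopes on CD74 (0.17 to 0.26). Subclone 9 held the highest IRF1 and the lowest CD74, and without it 2 of the 16 tests passed an unadjusted p of 0.05, against 3.44% of all tests. With array medians subtracted, the slopes on CD74 kept unadjusted limma p-values of 0.00159 to 0.00755, and those on IRF1 had 0.0841, 0.206 and 0.0693.

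Among 23 tested signalling and transcription genes, 15 differed by at least 2-fold, against 63.3% of tested genes. RFX5, a factor at MHC promoters, ranged from 5.37 in subclone 11 to 7.35 in subclone 5, NFKBIA, the NF-kappa-B inhibitor, from 8.16 in subclone 3 to 9.87 in subclone 9, and JAK2, a kinase that binds cytokine receptors, from 4.15 in subclone 6 to 5.64 in subclone 2. Of 10 tested interferon targets 9 differed by at least 2-fold, and those of largest SD were IFITM1 (3.60 to 5.72), IFI35 (5.60 to 7.33) and WARS (7.23 to 9.24). In limma 0 of these 10 were called on TAP1 and 0 on PSMB9, with 5 and 0 at an unadjusted p below 0.05, against 21.3% and 12.2% of tested genes. On B2M and on TAPBP limma called 1 of the 10 each, against 8.01% and 5.67% of tested genes. ISG15, named for its call, rose with B2M (limma adjusted p = 0.0263, lost without subclone 1, 2, 3, 5 or 11, up to 0.0902). IFITM1 rose with TAPBP (limma adjusted p = 0.0152, up to 0.0793 without subclone 2 or 5, and 0.358 after the subtraction).

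Of 14 other tested class I and loading genes, 8 differed by at least 2-fold and 1 by 4-fold, against 63.3% and 12.9% of tested genes. ERAP2, which trims peptides in the endoplasmic reticulum, ranged from 5.89 in subclone 11 to 7.87 in subclone 3, MICB, a stress ligand for natural killer cells, from 4.63 in subclone 12 to 6.69 in subclone 9, and FCGRT, an antibody receptor, from 4.09 in subclone 10 to 5.56 in subclone 3. Of the 12 proteasome and peptide supply genes 10 differed by at least 2-fold, against the same 63.3%, and those of largest SD were BLMH, a peptidase (4.76 to 6.89), PSME3, a proteasome activator (5.82 to 7.68), and PSME2, an interferon-induced activator (9.19 to 10.74). Of 2 tested natural killer and T cell ligands, ULBP2 ranged from 5.08 to 6.42, and PVRL2 from 5.52 to 6.31.

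The last comparison set the members against their neighbours in the genome. The interval from HLA-F to TAPBP on chromosome 6 held 53 tested genes other than the members, and their median r was 0.17 with HLA-B, 0.08 with TAP1 and 0.23 with PSMB9, against 0.03, -0.07 and 0.22 over all tested genes. These genes share arrays and chromosome, so the values are a description.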

How the data were processed

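Expression was measured in 10 U87MG subclones on 1 array each. The deposited table holds RMA log2 values, per the submitters' processing notes, for 11880 genes. The array annotation, and how the authors joined probe sets into genes, are not given in the labels used. Values lie between 2.73 and 13.70, and the table has 0 per-sample columns outside these subclones. The precision is limited by the number of arrays, and p-values measure the spread between these arrays, which may be technical. No 2 arrays were identical.

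Genes whose highest value reached the table median (5.00) were tested, 7095 in all. Symbols were matched to RefSeq (GRCh38.p14): 10616 were current, 1082 older and 182 unmatched. Every tested gene was regressed on 1 gene's level with limma 3.58.1 (R 4.3.3; lmFit, eBayes with a mean-variance trend, Benjamini-Hochberg, 0.05), which was tested on simulated data. Correlations used 100000 2-sided permutations (numpy 2.4.6). The alternatives were array-median subtraction, Spearman correlation, other filters, a constant variance prior and leaving out each subclone. Leaving out subclones 9 and 10 together, and the alternatives for the heavy chain mean and the most alike genes, were chosen after seeing the data.

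All 9 members were named, with the 3 most alike genes of each, IRF1, NLRC5, CIITA and CD74, and the 3 genes of largest SD in each list, and some of these genes and results are not reported here; PSMB8, HLA-DMA and genes called in a regression are named besides. SATB1, PDIA5 and ISG15 were singled out after their values were seen. Members and lists were chosen with earlier results of these data known. Promoters are RefSeq windows of 300 bases.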

Additional observations from a re-analysis of the deposited data

How the results depend on the processing

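Array-median subtraction raised the mean r over the 36 pairs from 0.07 to 0.32, turned HLA-C with TAP2 from -0.76 to 0.081, and raised the calls pooled over the 9 member regressions from 1025 to 3251 and over IRF1 and CD74 from 5 to 29. The latter count was 2 with no filter and 2 with a constant variance prior, which also left 1 of the 3 member calls. Leaving out 1 subclone gave 34 (without subclone 2) to 2343 (without subclone 9) pooled calls, 0 (without subclone 5) to 5 (without subclone 9) member calls, and 2 (without subclones 2, 3, 5, 6, 8 or 9) to 19 (without subclone 11) calls on IRF1 and CD74. The cause of these shifts was not tested. The mean r among heavy chains, 0.81, lay between 0.72 and 0.84 when any 1 subclone was left out. Its jackknife error of 0.10 was computed from those same sets, so it is no separate check on them. The mean r was 0.83 after the subtraction, and the mean rho was 0.72. The count of genes past 2-fold stayed at 2 or 3 under all 14 alternatives run. No paired analysis was possible because each subclone is 1 sample and no groups are compared. With 1 array per subclone, no single difference between subclones could be tested, and values near the array floor, as for TAP2, are compressed.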
